A study of Drosophila melanogaster with 6 samples.

Results

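The genes described here encode the junction and polarity machinery of Drosophila epithelia: septate junctions, adherens junctions, and the complexes that set the apical and basolateral membrane. They were chosen by name, as 38 genes of known junction or polarity function. The selection rule used no measured value, but the list was drawn up with earlier results of these arrays known. A probe set was taken when its only gene symbol in the platform annotation, updated to current symbols, was one of these names. This gave 60 probe sets for the 38 genes, out of 11982 genes named on the array in this way. Of the 38 genes, 30 were read by 1 probe set and 8 by several. A single probe set, the one with the highest mean over all arrays, stands for each gene unless stated otherwise.

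RNA came from whole embryos of Drosophila melanogaster aged to stage 16, when the epidermis and trachea are differentiating, and was hybridised to 6 single-colour Affymetrix arrays. The study asked how the transcription factor Grainy head, encoded by grh, affects transcript levels. Each of 3 genotypes had 2 arrays: wild type (w1118), grh mutant (grhB37), and grh overexpression (69B>grh). 69B is a GAL4 driver line known for broad activity in the embryonic ectoderm, so the added grh is not confined to the cells that normally express it. No arrays of the driver alone or the transgene alone were used here, and the labels do not say how mutant embryos were selected. Nor do they say that the replicates were separate embryo collections, and the p-values below cover no more than the variation among these 6 arrays, which may be technical.

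Epithelial cells of the fly are joined by an apical belt of adherens junctions, in which E-cadherin is linked to actin through catenins. Below that belt lie the septate junctions, which block the passage of solutes between cells and are built from many interdependent proteins. Pleated septate junctions occur in ectodermal epithelia such as epidermis, trachea and salivary gland, and in the glia that seal the nervous system. Smooth septate junctions occur in the midgut and use a different set of proteins. The Crumbs and Par complexes define the apical membrane, and the Scribble module with Yurt defines the basolateral membrane. Grainy head is known as a regulator of epithelial barrier and cuticle genes.

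The target gene itself was read first. The grh probe set had log2 values of 7.36 and 7.45 in wild type, 9.05 and 9.02 in the arrays labelled grh mutant, and 12.27 and 12.38 in overexpression. Relative to wild type, overexpression was 30.2-fold higher (limma adjusted p = 1.21e-14), and the arrays labelled grh mutant were higher as well, by 3.09-fold (adjusted p = 1.59e-10). The grh transcript level therefore does not check the mutant label. Directions below are given for the arrays as labelled, called mutant-labelled arrays.

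Marker genes of other tissues also differed between the genotypes. Linear values, summed over the markers of a list found on the array, tested or not, are given here as ranges over the 2 arrays of a group. The muscle sum was 30923 to 31454 in wild type, 41130 to 42017 in the mutant-labelled arrays and 16245 to 16671 in overexpression. All 9 tested muscle markers were higher in the mutant-labelled arrays than in wild type, and all 9 were lower in overexpression. Neuronal markers summed to 587 to 638 in wild type, 847 to 912 in the mutant-labelled arrays and 448 to 479 in overexpression, and glial markers to 4060 to 4210, 4293 to 4447 and 2403 to 2567. Of 7 neuronal markers tested, 5 were higher and 1 lower in the mutant-labelled arrays, and 1 was higher and 5 lower in overexpression. Glia had 2 of 6 higher and 3 lower in the first contrast, and 0 higher and 6 lower in the second.

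In overexpression, most epidermal markers moved the other way from those of muscle, neurons and glia. The epidermal list held Ddc, kkv, knk, Cht5, dyl, mey, zye and tyn, which are cuticle and apical matrix genes. The epidermal sum was 2362 to 2435 in wild type, 1740 to 1759 in the mutant-labelled arrays and 6589 to 6976 in overexpression, with 7 of 8 markers higher and 1 lower in overexpression, and 3 higher and 4 lower in the mutant-labelled arrays. Tracheal markers summed to 9930 to 10081, 10894 to 10953 and 10443 to 10600. Of 6 tracheal markers, 3 were higher and 0 lower in the mutant-labelled arrays, whereas 1 was higher and 4 lower in overexpression. A linear sum weighs bright genes most, and in overexpression the tracheal sum was above wild type although 4 of 6 markers were lower. The midgut sum was 848 to 913 in wild type, 3146 to 3226 in the mutant-labelled arrays and 2614 to 2651 in overexpression. For the midgut, 6 of 7 tested markers were higher and 1 lower in the first contrast, and 4 higher and 2 lower in the second, and the protease gene Jon25Bi was below the detection level in every group, the only listed marker found on the array of which this was so. Hemocyte markers summed to 1912 to 1964, 1504 to 1595 and 841 to 858, with 2 of 7 higher and 4 lower in the mutant-labelled arrays and 1 higher and 6 lower in overexpression. In whole embryos, fewer cells of a type and less RNA per cell cannot be told apart.

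All 38 genes had a log2 value of at least 4, the detection level used for testing, on all 6 arrays. Their values lay between 5.49, for the E-cadherin gene shg, and 11.45, for the smooth junction gene mesh, and the spread between the 2 arrays of a group was small (median SD 0.039, largest 0.2 on the log2 scale). Of the 60 probe sets, 48 passed the filter of at least 4 on at least 2 arrays. The 12 that did not were additional probe sets of sdt, pyd, dlg1, mesh, aPKC and cno.

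**Figure D1:**
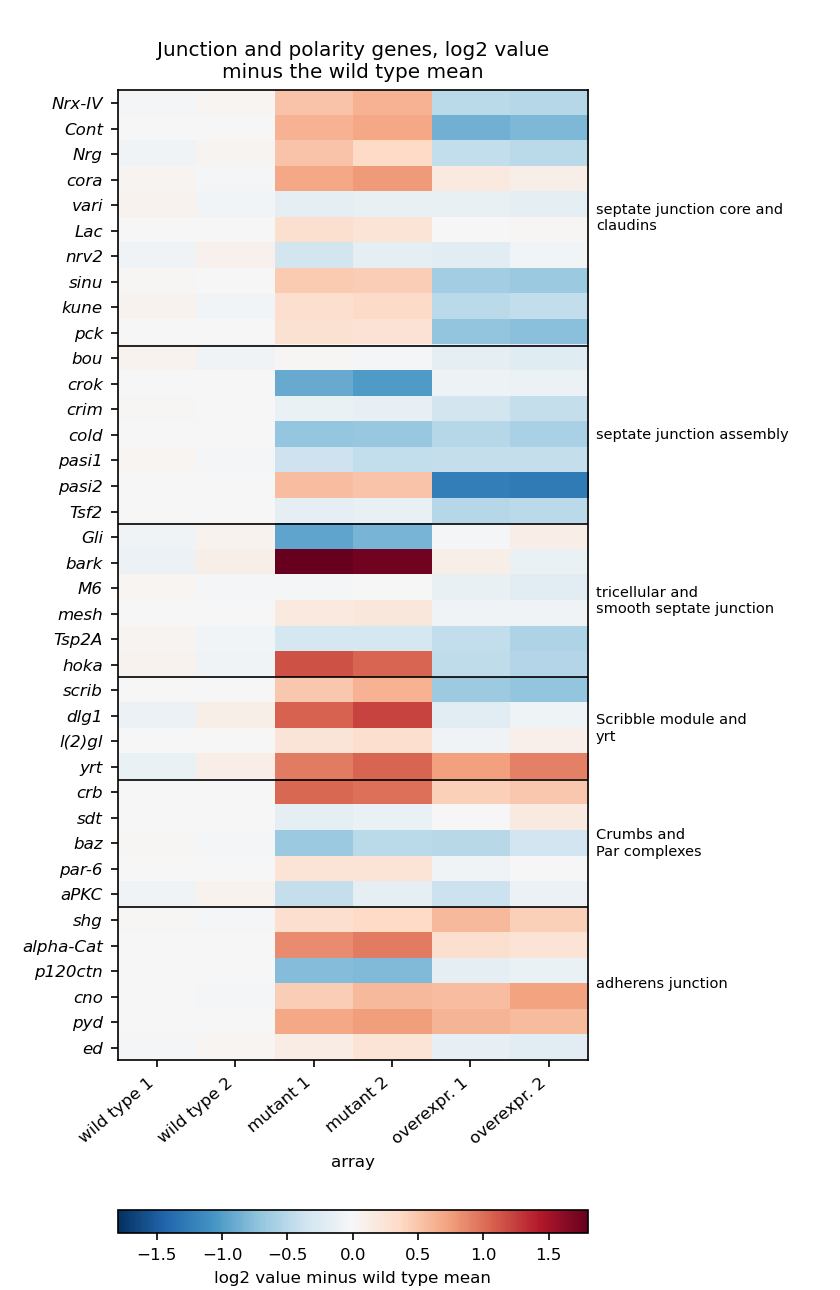
Log2 value of each of the 38 genes on each of the 6 arrays, shown as the difference from that gene's wild type mean (colour, log2 units) and grouped by role. The 2 columns of a genotype are close in colour for nearly every gene, and 20 of the 38 genes have their lowest genotype mean in overexpression.

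In the mutant-labelled arrays, most junction and polarity genes were read higher than in wild type. Of the 38 genes, 23 were higher and 13 lower (limma adjusted p under 0.05, two-sided), and only the 2 genes bou and M6 did not pass the test. Calls were common on these arrays, with 36.3% of all 8632 tested rows higher and 44.6% lower, against 60.5% and 34.2% of the junction and polarity genes. Their median log2 fold change was 0.26, whereas that of all rows was -0.07. The median absolute log2 change was 0.45 for these genes and 0.49 for all rows. A 2-fold difference was reached by 10.5% of these genes and by 17.8% of all rows. The 4 genes were bark, hoka, dlg1 and crb, all of them higher.

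In overexpression, more of these genes were lower than higher relative to wild type. There were 21 lower, 7 higher and 10 not called, or 55.3% lower and 18.4% higher, where all rows gave 44.1% lower and 36.0% higher. The median log2 fold change was -0.17 for these genes and -0.08 for all rows. A 2-fold difference was reached by 2.63% of them, the single gene pasi2, and by 21.4% of all rows. Both contrasts use the same wild type arrays, so they are not independent of each other.

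Set directly against the mutant-labelled arrays, overexpression gave 25 genes lower, 5 higher and 8 not called. Lower calls made up 65.8% of the genes and higher calls 13.2%, and across all rows these shares were 43.7% and 42.9%. The median log2 difference was -0.26, against -0.01 for all rows. By genotype means, 21 of the 38 genes were highest in the mutant-labelled arrays (55.3%, against 35.3% of all rows), 13 in wild type and 4 in overexpression (10.5%, against 34.9%). The lowest mean was in overexpression for 20 genes (52.6%, against 40.4% of all rows), and in wild type and the mutant-labelled arrays for 9 genes each.

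Many of these calls rest on small differences. When only differences beyond a fold of 1.2 were tested (limma treat), 15 genes were higher (39.5%, against 25.9% of all rows) and 6 lower (15.8%, against 30.7%) in the mutant-labelled arrays. In overexpression against wild type, 5 were higher (13.2%, against 25.6%) and 14 lower (36.8%, against 28.7%). Between the altered genotypes, 14 were lower in overexpression (36.8%), near the 34.3% of all rows, and 3 were higher (7.89%, against 33.0%). Without replicate 1 of the mutant-labelled arrays, the count of genes lower in that genotype than in wild type was 8 and the count higher in overexpression than in it was 3.

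**Figure D2:**
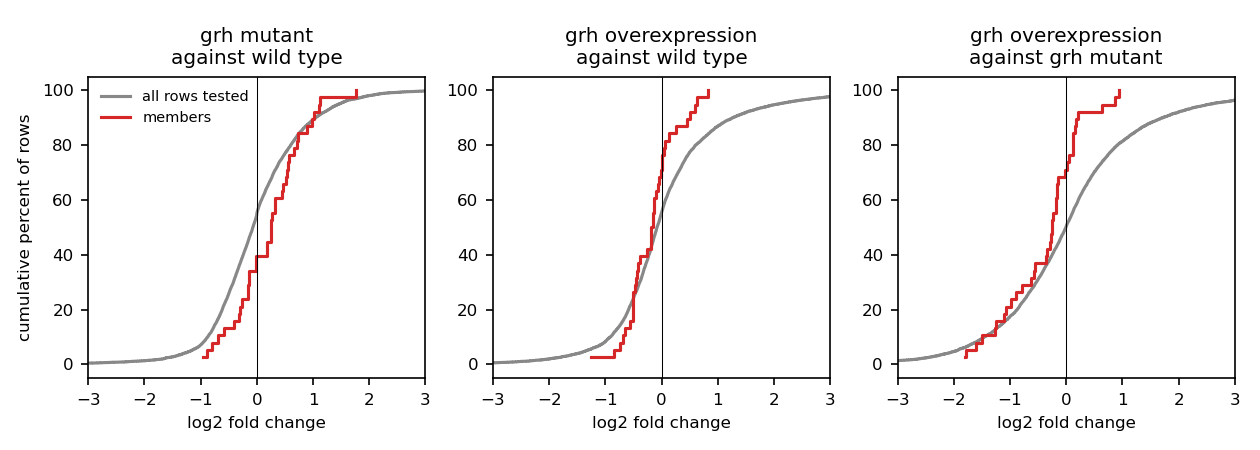
Cumulative share (vertical axis, percent) of the 38 junction and polarity genes (members, red) and of all 8632 tested rows (grey) by log2 fold change (horizontal axis) in each contrast. The curve of the 38 genes lies to the right of all rows around the centre in the mutant contrast, where their medians are 0.26 and -0.07, and to the left in overexpression against the mutant-labelled arrays, where they are -0.26 and -0.01.

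**Figure D3:**
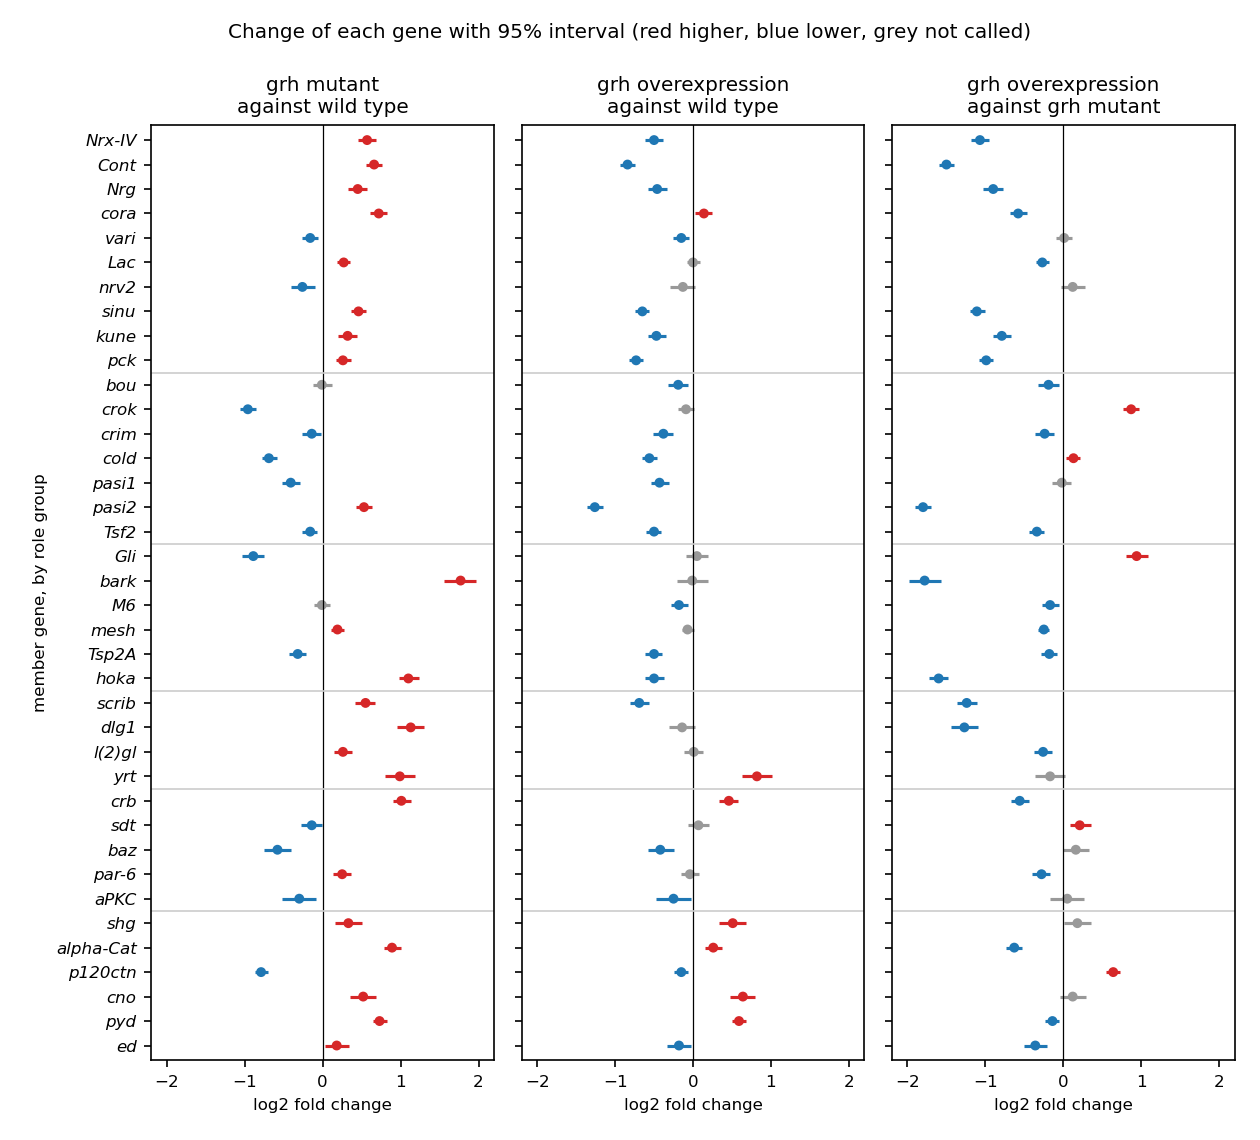
Log2 fold change (horizontal axis) with its 95% confidence interval for each of the 38 genes, grouped by role, in the 3 contrasts, with genes called higher in red, called lower in blue and not called in grey. Against wild type, the highest point is bark in the mutant-labelled arrays, at 1.77, and the lowest is pasi2 in overexpression, at -1.26, and pasi2 is also lowest in overexpression against the mutant-labelled arrays, at -1.8.

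The structural core of the pleated septate junction, with the claudins, was higher in the mutant-labelled arrays and mostly lower in overexpression. Of its 10 genes, 8 were higher and 2 lower in the first contrast, with a median log2 change of 0.38, and 1 was higher, 7 lower and 2 not called in the second, with a median of -0.46. Of all rows, 36.3% were higher and 44.6% lower in the first contrast, and 36.0% and 44.1% in the second. Between the altered genotypes these shares were 42.9% and 43.7%. The role groups are small, and their counts were not tested against these shares. Against the mutant-labelled arrays, 8 were lower in overexpression, none was higher and the median was -0.85. The neuronal and glial marker sums were also lowest in overexpression, whereas the epidermal sum was highest there. The epidermal markers are cuticle and apical matrix genes, and whether their sum follows cell number was not tested. Of 6 tracheal markers, 1 was higher and 4 lower in overexpression. The part of these cell types in the result was not tested.

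Contactin, encoded by Cont, is a cell surface adhesion protein that forms a complex with Neurexin IV and Neuroglian. Cont had values of 9.53 and 9.53 in wild type, 10.15 and 10.22 in the mutant-labelled arrays, and 8.66 and 8.72 in overexpression. The 3 genotypes did not overlap, with overexpression lowest. The log2 change was 0.66 ± 0.046 (SE) in the mutant-labelled arrays (adjusted p = 9.52e-08) and -0.84 ± 0.046 in overexpression (adjusted p = 9.00e-09), so Cont was 2.83-fold lower in overexpression than in the mutant-labelled arrays. Its partners had the same order of genotypes. Nrx-IV, the transmembrane neurexin, was 1.48-fold higher in the mutant-labelled arrays and 1.41-fold lower in overexpression. Nrg, the L1-type adhesion protein, was 1.36-fold higher and 1.37-fold lower.

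The claudins, small membrane proteins of the junction, gave the same ranking. The claudin gene pck, also known as megatrachea, had values of 9.97 and 9.95 in wild type, 10.23 and 10.22 in the mutant-labelled arrays, and 9.25 and 9.21 in overexpression. Overexpression stood well below the other genotypes, while wild type and the mutant-labelled arrays were separate but near each other. The log2 change was 0.26 ± 0.042 in the mutant-labelled arrays (adjusted p = 0.000104) and -0.73 ± 0.042 in overexpression (adjusted p = 1.48e-08). For sinu the changes were 0.46 and -0.65 on the log2 scale, and for kune 0.32 and -0.47. Both claudin genes passed the test in each contrast.

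The cytoplasmic scaffold behaved otherwise. Coracle, encoded by cora, is a FERM domain protein that binds the tail of Neurexin IV. The cora values were 9.66 and 9.57 in wild type, 10.3 and 10.37 in the mutant-labelled arrays, and 9.79 and 9.72 in overexpression. The mutant-labelled arrays were clearly above both other genotypes, and overexpression lay just above wild type. Its change was 0.72 ± 0.049 (adjusted p = 7.67e-08) in the mutant-labelled arrays and 0.14 ± 0.049 (adjusted p = 0.0207) in overexpression. The second call was lost without wild type replicate 2 or overexpression replicate 1, with adjusted p values of 0.136 to 0.152.

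Of the rest of the core, Lac, which encodes the adhesion protein Lachesin, was 1.2-fold higher in the mutant-labelled arrays and was at the wild type level in overexpression (log2 difference 0.00, 95% interval -0.08 to 0.09). The MAGUK scaffold gene vari was lower in both genotypes, by 1.12-fold and 1.11-fold. The gene nrv2, for a sodium pump beta subunit needed in the junction, was 1.19-fold lower in the mutant-labelled arrays. In overexpression nrv2 differed from wild type by -0.13 (95% interval -0.29 to 0.02), which did not pass the test. The vari and nrv2 calls were each lost when 1 of 2 arrays was left out: vari in the mutant contrast without wild type replicate 1 or mutant replicate 1 (adjusted p 0.0706 to 0.0823), and in overexpression without wild type replicate 1 or overexpression replicate 2 (0.053 to 0.0986). The nrv2 call was lost without wild type replicate 2 or mutant replicate 1 (0.0648 to 0.0812).

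The septate junction assembly genes encode proteins that bring junction components to the membrane, among them the small GPI-anchored Ly6 proteins, and here the mutant-labelled arrays were mostly lower. Of 7 genes, 1 was higher, 5 lower and 1 not called in the mutant-labelled arrays (median log2 change -0.16), and 0 were higher, 6 lower and 1 not called in overexpression (median -0.43). Lower calls were 71.4% and 85.7% of these genes, against 44.6% and 44.1% of all rows. In the core, by comparison, 8 of 10 were higher in the mutant-labelled arrays. Against the mutant-labelled arrays, overexpression had 2 higher and 4 lower (28.6% and 57.1%, against 42.9% and 43.7% of all rows).

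The tetraspan gene pasi2 had values of 9.2 and 9.18 in wild type, 9.75 and 9.7 in the mutant-labelled arrays, and 7.94 and 7.92 in overexpression. Overexpression lay far below the other 2 genotypes on both arrays. The gene was 2.4-fold lower in overexpression than in wild type (adjusted p = 2.32e-10) and 1.45-fold higher in the mutant-labelled arrays (adjusted p = 5.60e-07). Its companion pasi1, another four-pass membrane protein gene, was lower in both genotypes, by 1.33-fold and 1.35-fold.

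The Ly6 gene crok had values of 10.26 and 10.27 in wild type, 9.37 and 9.25 in the mutant-labelled arrays, and 10.18 and 10.17 in overexpression. Only the mutant-labelled arrays stood apart by a large margin. The log2 change was -0.96 ± 0.046 there (adjusted p = 4.64e-09), a 1.94-fold decrease, and -0.09 in overexpression (adjusted p = 0.0951, 95% interval -0.19 to 0.01). A further Ly6 gene, cold, had values of 10.12 and 10.13 in wild type, 9.43 and 9.44 in the mutant-labelled arrays, and 9.6 and 9.54 in overexpression. Wild type was highest, with a 1.61-fold decrease in the mutant-labelled arrays (adjusted p = 3.77e-08) and a 1.47-fold decrease in overexpression (adjusted p = 1.98e-07).

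The Ly6 gene crim was 1.1-fold lower in the mutant-labelled arrays and 1.3-fold lower in overexpression. For bou, also a Ly6 gene, the level differed from wild type by -0.01 in the mutant-labelled arrays (95% interval -0.13 to 0.12) and was 1.14-fold lower in overexpression. Tsf2, which encodes a transferrin-like iron-binding protein required for the junction, was 1.12-fold and 1.42-fold lower. The crim call in the mutant contrast was lost whichever of the 4 arrays of that contrast was left out (adjusted p 0.0566 to 0.135), and the bou call in overexpression was lost without wild type replicate 1 or overexpression replicate 2 (0.0641 to 0.0882). Between overexpression and the mutant-labelled arrays, the lower call of bou was lost without mutant replicate 1 or overexpression replicate 2 (0.0669 to 0.0734), and the higher call of cold without either mutant array or overexpression replicate 1 (0.0512 to 0.114).

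**Figure D4:**
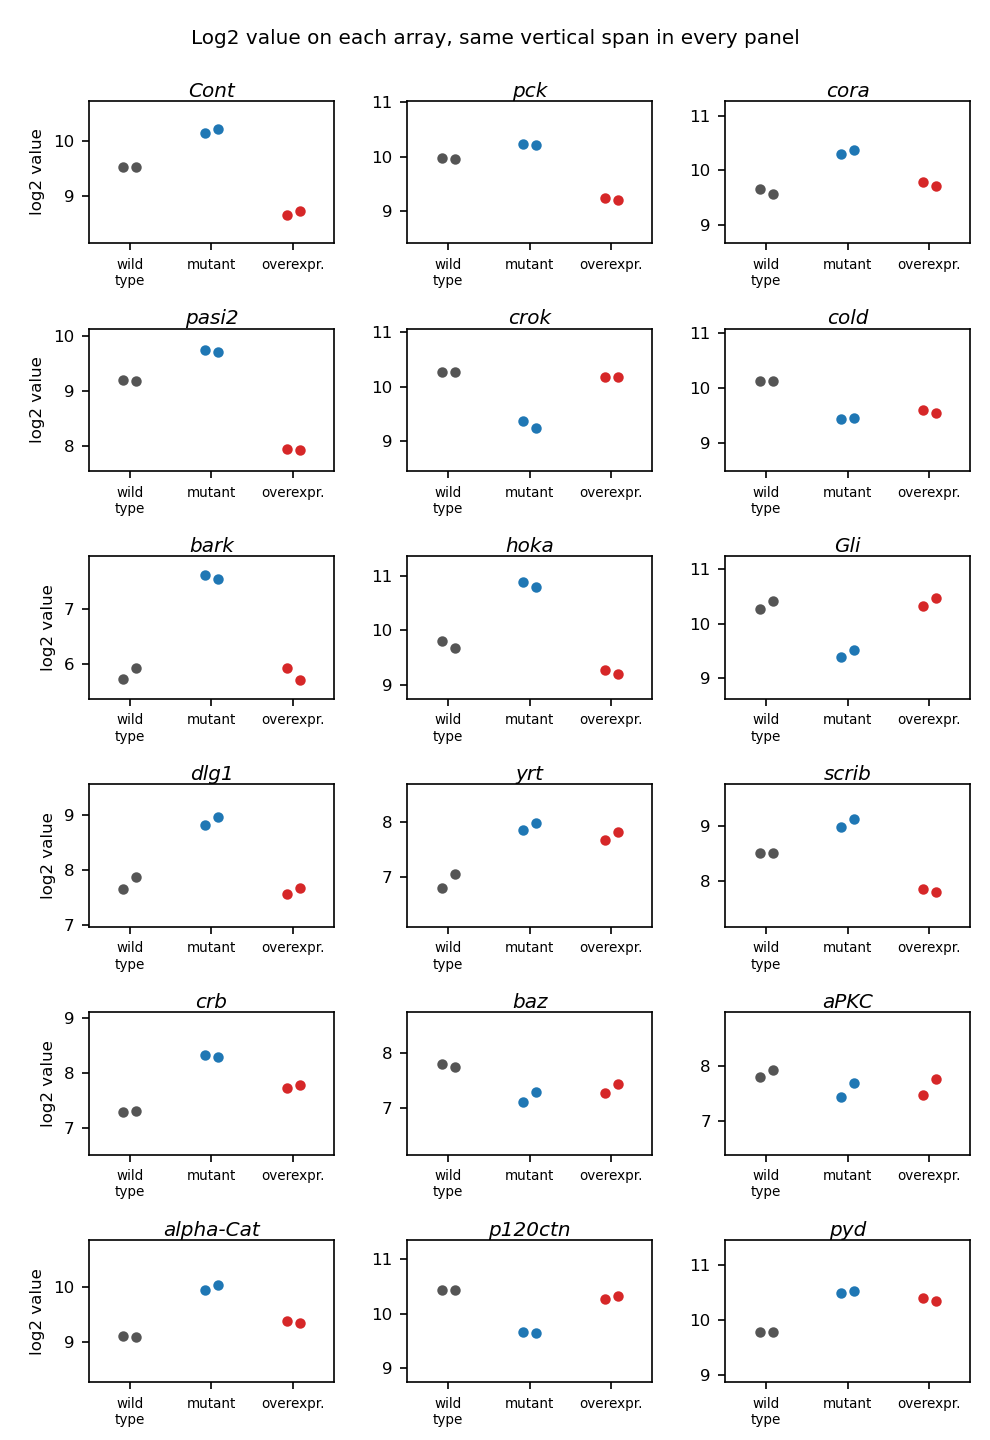
Log2 value on each array (points, 2 per genotype) of the 18 genes given array by array in the text, 3 per role, with the same vertical span in every panel. In several panels, among them Cont and hoka, the mutant-labelled arrays are highest and overexpression lowest, while crok, Gli and p120ctn show the mutant-labelled arrays lowest.

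Where 3 cells meet, specialised proteins close the junction, and the 3 genes for them differed from one another. The gene bark, also called anakonda, encodes a large transmembrane protein of these tricellular contacts. Its values were 5.72 and 5.92 in wild type, 7.62 and 7.55 in the mutant-labelled arrays, and 5.92 and 5.7 in overexpression. The mutant-labelled arrays were high, and the other genotypes overlapped. This was a 3.4-fold increase (log2 change 1.77 ± 0.092, adjusted p = 9.13e-09). In overexpression the difference from wild type was -0.01 (95% interval -0.21 to 0.19).

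Gliotactin, the neuroligin-like protein encoded by Gli, occupies the same contacts and requires Bark there. The Gli values were 10.27 and 10.41 in wild type, 9.39 and 9.51 in the mutant-labelled arrays, and 10.32 and 10.46 in overexpression. Here the mutant-labelled arrays were low and the other genotypes overlapped, the reverse of bark. Gli was 1.85-fold lower in the mutant-labelled arrays (adjusted p = 1.33e-07) and differed from wild type by 0.05 in overexpression (95% interval -0.09 to 0.19). M6, a proteolipid family member of tricellular contacts, differed from wild type by -0.01 in the mutant-labelled arrays (95% interval -0.11 to 0.1) and was 1.13-fold lower in overexpression, a call lost without overexpression replicate 2 (adjusted p = 0.0534).

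The smooth septate junction proteins Mesh, Tsp2A and Hoka depend on one another in the midgut. The hoka values were 9.8 and 9.67 in wild type, 10.89 and 10.79 in the mutant-labelled arrays, and 9.28 and 9.21 in overexpression. The 3 genotypes were separate, with a 2.15-fold increase in the mutant-labelled arrays (adjusted p = 6.61e-09) and a 1.41-fold decrease in overexpression (adjusted p = 5.82e-06). By contrast Tsp2A, a tetraspanin gene, was lower in both, by 1.25-fold and 1.42-fold. The mesh gene was 1.14-fold higher in the mutant-labelled arrays and did not pass the test in overexpression (log2 difference -0.07, adjusted p = 0.106). The midgut marker sum was higher than in wild type in both altered genotypes. Its single markers were mixed in overexpression, with 4 of 7 higher and 2 lower. Mal-A3 was 13.9-fold higher there and Vha100-4 3.62-fold lower. The part of the midgut in these results was not tested.

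Over these 6 tricellular and smooth junction genes, 3 were higher, 2 lower and 1 not called in the mutant-labelled arrays (median 0.09), and 0 higher, 3 lower and 3 not called in overexpression (median -0.12). Across all rows, 36.3% were higher and 44.6% lower in the mutant-labelled arrays, and 36.0% and 44.1% in overexpression. Overexpression against the mutant-labelled arrays gave 1 higher, Gli, and 5 lower (16.7% and 83.3%, against 42.9% and 43.7% of all rows). Of those lower calls, M6 and Tsp2A were lost without overexpression replicate 2 (adjusted p 0.0572 and 0.0533).

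The Scribble module and yrt set the basolateral membrane. In the mutant-labelled arrays 4 of 4 genes were higher, against 36.3% of all rows, with a median log2 change of 0.77. The scrib call among them depends on the probe set read, and with probe sets averaged it did not pass the test (0.1, adjusted p = 0.112). In overexpression 1 was higher, 1 lower and 2 not called. Discs large, encoded by dlg1, is a MAGUK scaffold. The dlg1 values were 7.65 and 7.86 in wild type, 8.81 and 8.96 in the mutant-labelled arrays, and 7.56 and 7.67 in overexpression. The mutant-labelled arrays were separate from the rest, with a 2.19-fold increase (adjusted p = 8.81e-08), and overexpression overlapped wild type (log2 difference -0.14, 95% interval -0.31 to 0.03). The gene l(2)gl, for the remaining protein of the module, Lethal giant larvae, was 1.2-fold higher in the mutant-labelled arrays and differed by 0.01 in overexpression (95% interval -0.12 to 0.13).

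Yurt is a FERM protein that limits Crumbs activity. Its gene yrt had values of 6.81 and 7.05 in wild type, 7.86 and 7.98 in the mutant-labelled arrays, and 7.67 and 7.83 in overexpression. Both altered genotypes lay above wild type. The log2 change was 0.99 ± 0.086 in the mutant-labelled arrays (adjusted p = 6.48e-07) and 0.82 ± 0.086 in overexpression (adjusted p = 3.23e-06), and the difference between the altered genotypes did not pass the test (-0.17, adjusted p = 0.0866).

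Among the apical determinants, crb, which encodes the transmembrane protein Crumbs, was higher in both altered genotypes. Its values were 7.29 and 7.3 in wild type, 8.33 and 8.29 in the mutant-labelled arrays, and 7.73 and 7.78 in overexpression. The 3 genotypes were separate, with wild type lowest. The increase was 2.02-fold in the mutant-labelled arrays (adjusted p = 9.35e-09) and 1.37-fold in overexpression (adjusted p = 7.98e-06). For its scaffold partner Stardust, sdt was 1.1-fold lower in the mutant-labelled arrays (adjusted p = 0.0492) and differed by 0.07 in overexpression (95% interval -0.06 to 0.2).

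Of the Par complex genes, baz and aPKC were lower in both altered genotypes and par-6 was higher in the mutant-labelled arrays. The baz gene, for the Par-3 protein Bazooka, had values of 7.79 and 7.75 in wild type, 7.1 and 7.28 in the mutant-labelled arrays, and 7.27 and 7.43 in overexpression. Wild type was above all 4 other arrays, and the altered genotypes overlapped. The log2 change was -0.58 ± 0.076 in the mutant-labelled arrays (adjusted p = 2.12e-05) and -0.42 ± 0.076 in overexpression (adjusted p = 0.000321).

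The kinase gene aPKC had values of 7.8 and 7.93 in wild type, 7.44 and 7.69 in the mutant-labelled arrays, and 7.48 and 7.76 in overexpression. Wild type was highest, but the arrays of each altered genotype were far apart. The decreases were 1.23-fold (adjusted p = 0.0163) and 1.19-fold (adjusted p = 0.04). The adaptor gene par-6 was 1.19-fold higher in the mutant-labelled arrays and differed by -0.04 in overexpression (95% interval -0.15 to 0.08).

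Across the 5 Crumbs and Par genes, 2 were higher and 3 lower in the mutant-labelled arrays (median -0.14), and 1 was higher and 2 lower in overexpression (median -0.04). In the mutant-labelled arrays this was 40% higher and 60% lower, against 36.3% and 44.6% of all rows. In overexpression it was 20% and 40%, against 36.0% and 44.1%. Overexpression against the mutant-labelled arrays gave 1 higher, sdt, and 2 lower, crb and par-6. These were 20% and 40% of the genes, against 42.9% and 43.7% of all rows. The aPKC calls were lost without wild type replicate 2 or replicate 1 of the altered genotype (adjusted p 0.119 to 0.195 in the mutant contrast, 0.217 to 0.362 in overexpression). The sdt call in the mutant contrast was lost without any 1 of its 4 arrays (0.093 to 0.198), and its call between the altered genotypes without mutant replicate 1 or overexpression replicate 2 (0.051 to 0.0923).

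The adherens junction genes were mostly higher in both altered genotypes. Of all rows, 36.3% were higher and 44.6% lower in the mutant-labelled arrays, and 36.0% and 44.1% in overexpression. Of these 6 genes, 5 were higher and 1 lower in the mutant-labelled arrays (median 0.42), and 4 were higher and 2 lower in overexpression (median 0.39). Of the 4, pyd did not pass the test when its probe sets were averaged (log2 change 0.11, adjusted p = 0.16). That average includes pyd probe sets that did not pass the filter. The alpha-Cat gene encodes alpha-Catenin, which joins the cadherin complex to actin. Its values were 9.11 and 9.09 in wild type, 9.95 and 10.03 in the mutant-labelled arrays, and 9.39 and 9.34 in overexpression. The order was wild type, overexpression, mutant-labelled, with no overlap. The increases were 1.86-fold (adjusted p = 8.61e-09) and 1.2-fold (adjusted p = 0.000249).

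The pyd gene, for the ZO-1 scaffold protein Polychaetoid, had values of 9.79 and 9.79 in wild type, 10.49 and 10.54 in the mutant-labelled arrays, and 10.4 and 10.36 in overexpression. Both altered genotypes were high and close to each other, at 1.66-fold (adjusted p = 1.69e-08) and 1.51-fold (adjusted p = 8.35e-08) above wild type. A further pyd probe set was lower in overexpression and is described with the probe sets. The afadin gene cno, whose product links adherens junctions to actin, was 1.43-fold and 1.56-fold higher. For shg, E-cadherin itself, the increases were 1.26-fold and 1.42-fold.

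The exception in the mutant-labelled arrays was p120ctn, for p120-catenin, which binds the juxtamembrane part of E-cadherin. It had values of 10.44 and 10.44 in wild type, 9.66 and 9.65 in the mutant-labelled arrays, and 10.27 and 10.32 in overexpression. The mutant-labelled arrays were low, with overexpression just below wild type. The log2 change was -0.79 ± 0.04 (adjusted p = 7.12e-09) and -0.15 ± 0.04 (adjusted p = 0.00501). The ed gene, for the immunoglobulin adhesion protein Echinoid, was 1.14-fold higher in the mutant-labelled arrays and 1.13-fold lower in overexpression.

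Between the altered genotypes, p120ctn was the 1 adherens junction gene higher in overexpression, alpha-Cat, pyd and ed were lower, and shg and cno did not pass the test. The ed calls were lost without wild type replicate 1 or mutant replicate 2 in the mutant contrast (adjusted p 0.129 to 0.175), and without wild type replicate 2 or either overexpression array in the other (0.0559 to 0.151). Without overexpression replicate 1 the p120ctn call in overexpression had an adjusted p of 0.0502. The pyd call between the altered genotypes was lost without replicate 2 of either (0.0647 to 0.0801).

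For genes with several probe sets, the direction could depend on which was read. With each probe set tested separately, 4 of the 38 genes had at least 2 tested probe sets (Nrg, dlg1, pyd and scrib). Across all named genes with 2 or more tested probe sets, 406 in number, 10.3% had calls in opposite directions in the mutant contrast, 8.62% in overexpression and 12.3% between the altered genotypes. Among the 4, scrib had opposite calls in every contrast and pyd in overexpression against wild type. The 3 probe sets of Nrg were each higher in the mutant-labelled arrays and lower in overexpression.

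Scribble, encoded by scrib, is the large scaffold of the basolateral module. The probe set with the highest mean, 1633904_at, had values of 8.51 and 8.5 in wild type, 8.98 and 9.13 in the mutant-labelled arrays, and 7.84 and 7.79 in overexpression. By this probe set scrib was 1.46-fold higher in the mutant-labelled arrays (adjusted p = 3.71e-06) and 1.61-fold lower in overexpression (adjusted p = 5.33e-07). A further probe set, 1635642_at, had the same directions, with a 2.88-fold increase and a 1.87-fold decrease. Others did not.

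Probe set 1639402_a_at had scrib values of 6.6 and 6.56 in wild type, 5.95 and 5.91 in the mutant-labelled arrays, and 4.63 and 4.73 in overexpression. It was lower than wild type in both altered genotypes, as was 1632164_at, by 1.24-fold and 3.44-fold. Probe set 1629115_s_at had values of 5.63 and 5.67 in wild type, 5.02 and 5.1 in the mutant-labelled arrays, and 6.5 and 6.57 in overexpression, the reverse of 1633904_at in both contrasts. All 3 of these probe sets were called lower in the mutant-labelled arrays.

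For pyd, probe set 1637322_at had values of 4.62 and 4.7 in wild type, 7.07 and 6.82 in the mutant-labelled arrays, and 4.12 and 4.12 in overexpression. It was 4.87-fold higher in the mutant-labelled arrays (adjusted p = 1.60e-09) but 1.45-fold lower in overexpression (adjusted p = 0.000235), where the probe set given above for pyd was higher. For dlg1, a dimmer probe set, 1635382_at, had values of 3.62 and 3.71 in wild type, 5.13 and 5.4 in the mutant-labelled arrays, and 3.53 and 3.46 in overexpression. Against arrays below the detection level it was at least 2.41-fold higher in the mutant-labelled arrays, and it passed the filter through that genotype alone.

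Probe sets whose names end in s_at can also match transcripts other than the one named. They stand for nrv2, vari, pck, pasi2, Gli, M6, mesh, l(2)gl and par-6, so values of these genes could include other transcripts. The same holds for scrib probe set 1629115_s_at, the only tested scrib probe set that was higher in overexpression than in wild type.

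**Figure D5:**
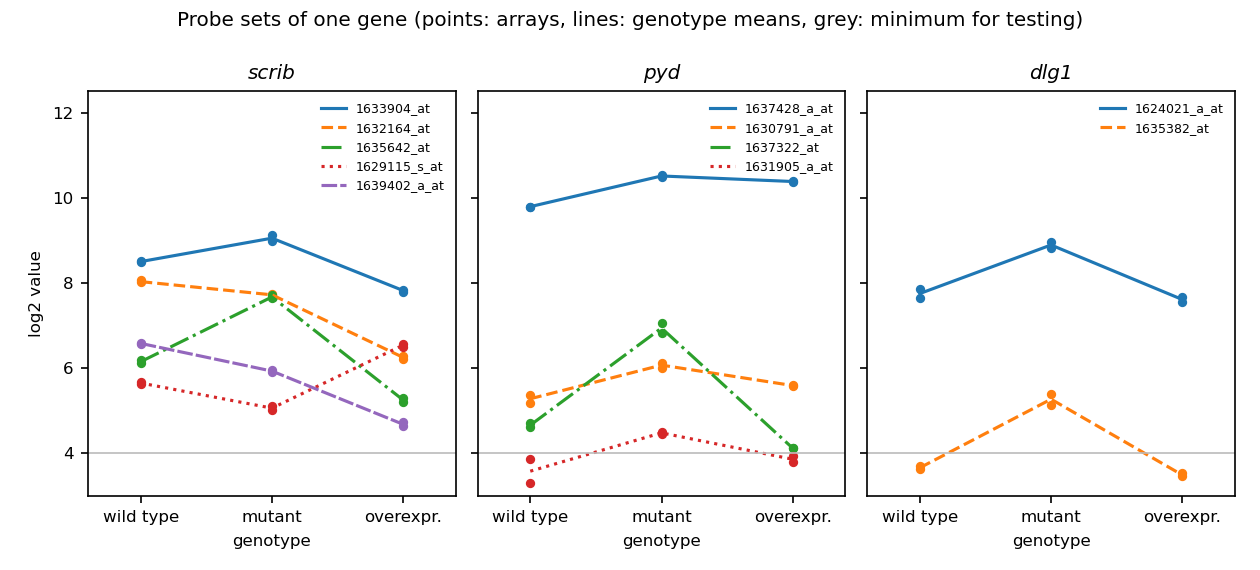
Log2 values on each array (points) and genotype means (lines) for the tested probe sets of scrib, pyd and dlg1, with the detection level of 4 as a grey line. The scrib lines cross, with 1629115_s_at highest in overexpression and the other 4 lowest there. Both dlg1 probe sets peak in the mutant-labelled arrays, but 1635382_at passed the filter through those arrays alone.

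Other genes of the same cell structures were listed for comparison. Of 24 such genes, 13 had a probe set under their own symbol alone and 12 were tested, since fred was dim in every group, and the other 11 are not analysed here. In the mutant-labelled arrays 5 were higher and 4 lower (median 0.05), and in overexpression 3 were higher and 5 lower (median -0.14). Between the altered genotypes 4 were higher and 6 lower in overexpression (median -0.13). Of all rows, 36.3% were higher and 44.6% lower in the mutant-labelled arrays, and 36.0% and 44.1% in overexpression. Between the altered genotypes the all-row shares were 42.9% and 43.7%. The largest changes against wild type among the 12 tested genes were those of twit, kst and Magi. The Ly6 gene twit had values of 5.26 and 5.22 in wild type, 7.0 and 7.03 in the mutant-labelled arrays, and 5.09 and 4.97 in overexpression, a 3.43-fold increase in the mutant-labelled arrays (adjusted p = 1.48e-09). In that contrast crok and cold, also Ly6 genes, were lower. In overexpression twit was 1.16-fold lower than in wild type (adjusted p = 0.0228). The apical spectrin gene kst had values of 7.06 and 7.14, 8.71 and 8.78, and 7.15 and 7.26 in the same order of genotypes, a 3.13-fold increase (adjusted p = 5.53e-10), and in overexpression it did not pass the test (log2 difference 0.11, adjusted p = 0.132). The scaffold gene Magi had values of 8.1 and 8.08, 7.4 and 7.37, and 9.18 and 9.27, and so fell by 0.71 on the log2 scale in the mutant-labelled arrays and was 2.19-fold higher in overexpression.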

How the data were processed

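Whole stage 16 embryos of 3 genotypes were profiled on 2 arrays each. The authors deposited 1 value per probe set and array on a log2 scale, which was read from the values themselves. The submitters' processing notes name GCRMA and MAS5, without role, order or version, and other steps are not given in the sources used here. Per the labels' protocols, cDNA was made with random primers. The deposited log2 values were used with no further normalization. Array medians lay between 2.99 and 3.16, and the 3' minus 5' difference of the Act5C, Gapdh and eIF4A controls between 0.93 and 1.49 on the log2 scale over the 6 arrays. Depth does not apply to arrays, and their number limits the precision.

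Of 18952 probe sets, 183 were controls. Platform annotation gave 13647 others 1 gene symbol, 402 several and 4720 none, and a RefSeq gene table (assembly: Release 6 plus ISO1 MT) supplied current symbols (13544 matched, 103 kept their old symbol). No symbol of the 38 genes changed in this step. Each gene was read by its brightest probe set on average. The filter required 2 or more arrays at a log2 value of 4 or above, which 8632 of 17104 rows met. Where a genotype had no array at 4 or above, a fold against it is a lower bound, computed from 4.

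The test was limma 3.58.1 in R 4.3.3 (lmFit, eBayes with an intensity trend) in a 3-group means model over all 6 arrays, with 3 residual and 7.93 prior degrees of freedom. P-values were two-sided and adjusted by Benjamini-Hochberg over all tested rows, with calls at 0.05, and intervals cover 95%. Separate fits treated every probe set as a row. No permutation test of single values was run, since 2 arrays against 2 cannot give a p below 0.333. All 38 genes are accounted for, and in each role the 3 with the largest absolute change against wild type are given array by array, with others where probe sets disagree. The 38 genes, the roles and the other lists were chosen with earlier results of these data known. Alternatives tried were no filter, a minimum of 5, no intensity trend, median centring, quantile normalization, the mean over probe sets, separate probe sets, testing against a fold of 1.2, the replicate number as a block, fits on only the groups compared, and leaving out each array.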

Additional observations from a re-analysis of the deposited data

How the results depend on the processing

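Of 94 called results for the 38 genes in the 3 contrasts, 55 kept their call and direction under all 16 alternatives, 39 lost the call under at least 1 and none reversed. With separate probe sets, the probe set with the lowest p stood for each gene in this count. Opposite calls of other probe sets, as in scrib and pyd, therefore could not count as reversals. Testing against a fold of 1.2 took away 37 calls and dropping the filter, which adds rows and lowers the prior degrees of freedom, took away 15. Averaging the probe sets of a gene took away 6, in mesh, aPKC, pyd and scrib. For mesh, aPKC and pyd the average includes probe sets that did not pass the filter. The average for sdt fell below the filter, so sdt was not tested in that setting and its calls are not among the 6. Leaving out 1 array took away 19, all with an absolute log2 change of at most 0.3. In the mutant contrast the 13 lower genes became 8 without the filter, 6 against a fold of 1.2, and 8 to 13 with 1 array left out, and the 23 higher genes became 15 against a fold of 1.2. Between overexpression and the mutant-labelled arrays the 5 higher genes became 3 with median centring, 3 against a fold of 1.2, 8 with the replicate block, and 3 to 7 with 1 array left out, and the 25 lower genes became 14 against a fold of 1.2 (36.8%, near the 34.3% of all rows). The other counts stayed within 1.5 times, with ranges on leaving out 1 array of 22 to 23 higher in the mutant contrast, 6 to 7 higher and 18 to 21 lower in overexpression, and 22 to 26 lower between the altered genotypes.

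The labels number replicates 1 and 2 in each genotype. Deviations of same-numbered arrays correlated at 0.165, 0.245 and 0.136 across rows for the 3 pairs of genotypes, and nothing in the labels ties the numbers to a shared day or collection. With the replicate block, genes lower in overexpression than in wild type numbered 25, against 21 without it, and no call among the 94 was lost. The block added 8 calls in all: nrv2 (adjusted p = 0.00225), dlg1 (0.0131), crok (0.0436) and mesh (0.0479), all lower in overexpression than in wild type, and, between overexpression and the mutant-labelled arrays, nrv2 (0.00388), baz (0.023) and shg (0.0456) higher and yrt (0.00867) lower.

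Directions changed in 12 results, all uncalled and near 0. Median centring moved the median of all rows between overexpression and the mutant-labelled arrays from -0.01 to -0.13. It gave 0.03 for bou and 0.03 for M6 in the mutant contrast, -0.08 for Lac (adjusted p = 0.0434), -0.04 for Gli, -0.08 for l(2)gl and -0.01 for sdt in overexpression, and -0.12 for vari (adjusted p = 0.0244), -0.07 for aPKC and -0.00037 for cno between the altered genotypes. Quantile normalization gave 0.0017 for bou, 0.01 for M6, 0.04 for mesh in overexpression, and -0.04 for vari and -0.0027 for aPKC between the altered genotypes. Leaving out 1 array gave ranges of -0.07 to 0.06 for bou and -0.03 to 0.02 for M6 in the mutant contrast. In overexpression they were -0.02 to 0.12 for Gli, -0.01 to 0.01 for Lac, -0.12 to 0.1 for bark, -0.08 to 0.09 for l(2)gl and -0.02 to 0.16 for sdt. Between the altered genotypes they were -0.09 to 0.19 for aPKC, -0.06 to 0.02 for pasi1 and -0.02 to 0.03 for vari. The cause of these changes was not tested. With 2 arrays per genotype, leaving out an array leaves a lone array that is assumed to vary like the others.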
